A study of Danio rerio with 6 samples.

Results

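Whole testis was compared with mature oocytes in zebrafish, using 2 testis libraries and 2 oocyte libraries, which are 4 of the 6 RNA-seq libraries of the series (the other two were made from whole ovary). All fish were wild type of the TLAB strain, the labels list no mutation and no treatment for any group, and they give no age. Testis libraries were made from the whole dissected organ, so they hold RNA of sperm-forming cells, Sertoli cells, Leydig cells, connective tissue and blood together. Oocyte libraries were made from mature eggs squeezed from females. Nothing in the labels says that the 2 libraries of one group stem from separate fish, so the p-values measure only the spread between these libraries, which may be technical. Expression was read as FPKM, the fragments per kilobase of transcript relative to the size of the library. Of 32253 features in the table, 12881 had an FPKM of at least 1 in 2 or more of the 4 libraries and at most 10000 in each of them, and these were compared. Another 24 features above 10000 FPKM were left out. A feature that is low in one tissue entered the comparison through its level in the other, so the direction of such a feature was largely fixed by this filter.

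A mature fish egg makes almost no RNA of its own. It carries a store of maternal RNA, laid down while the oocyte grew, that supplies the cell cycles, the body axes and the first gene activation of the embryo. The testis is built of cysts in which Sertoli cells surround germ cells of one stage, from dividing spermatogonia through meiotic spermatocytes to spermatids that grow a flagellum, while Leydig cells between the cysts make androgens. Zebrafish sperm swim with a motile flagellum whose core, the axoneme, holds microtubule doublets, dynein arms and radial spokes.

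Replicates of a tissue resembled each other closely, with a correlation across tested features of 0.975 between the testis libraries and 0.973 between the oocyte libraries on the log2(FPKM + 1) scale, while testis and oocyte libraries correlated at 0.319 to 0.387. These correlations are across genes, which are not independent replicates. Features were called where the limma adjusted p was under 0.05 and the difference in log2(FPKM + 1), testis minus oocyte, was at least 1 in size. By this rule 72.2% of tested features were called, 23.8% (3064) higher in testis and 48.4% (6234) lower. The median difference of all tested features was -0.93, so each change is read against a midpoint below 0. After median-of-ratios scaling of the libraries, the median was 0.04, and 66.2% were called, 36.0% (4640) higher and 30.1% (3881) lower. No feature was called in opposite directions on the 2 scales. Beside each gene list below, the second pair of counts is the one after this scaling. Each pair is to be read against the shares over all features, 23.8% higher and 48.4% lower, or 36.0% and 30.1% after scaling. Differences of individual genes are on the deposited scale and are given with their standard error.

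Testis and egg each held RNAs that the other nearly lacked. An FPKM of at least 1 in both libraries was reached by 9849 features in testis and by 10146 in oocyte, and 7201 features reached it in both. In testis 873 features had at least 1 FPKM in both libraries while staying under 0.1 FPKM in both oocyte libraries, and 130 showed the opposite pattern. At high levels the order depended on the scale. As deposited, 45 features combined at least 100 FPKM in both testis libraries with under 10 FPKM in both oocyte libraries, whereas 241 combined at least 100 FPKM in both oocyte libraries with under 10 FPKM in both testis libraries. After median-of-ratios scaling these counts were 100 and 77. A called difference of 64-fold or more on the log2(FPKM + 1) scale was found for 42 features higher in testis and 82 lower. After scaling, 117 were higher and 32 lower. By the rule of 1 and 0.1 FPKM above, scaled values gave 1560 features on the testis side and 48 on the oocyte side. Among features of at most 10000 FPKM, the 100 most abundant held 50.3% and 55.8% of summed FPKM in the testis libraries, against 32.4% and 27.1% in the oocyte libraries. The sums of these features were 282514 and 369101 FPKM in testis, against 504269 and 467602 FPKM in oocyte. With the features above 10000 FPKM, the sums were 6.28e+07 and 6.86e+07 FPKM in testis, against 1.78e+08 and 9.80e+07 FPKM in oocyte. The features left out thus held nearly all of the total, and every share of summed FPKM below is of the smaller sums.

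**Figure D1:**
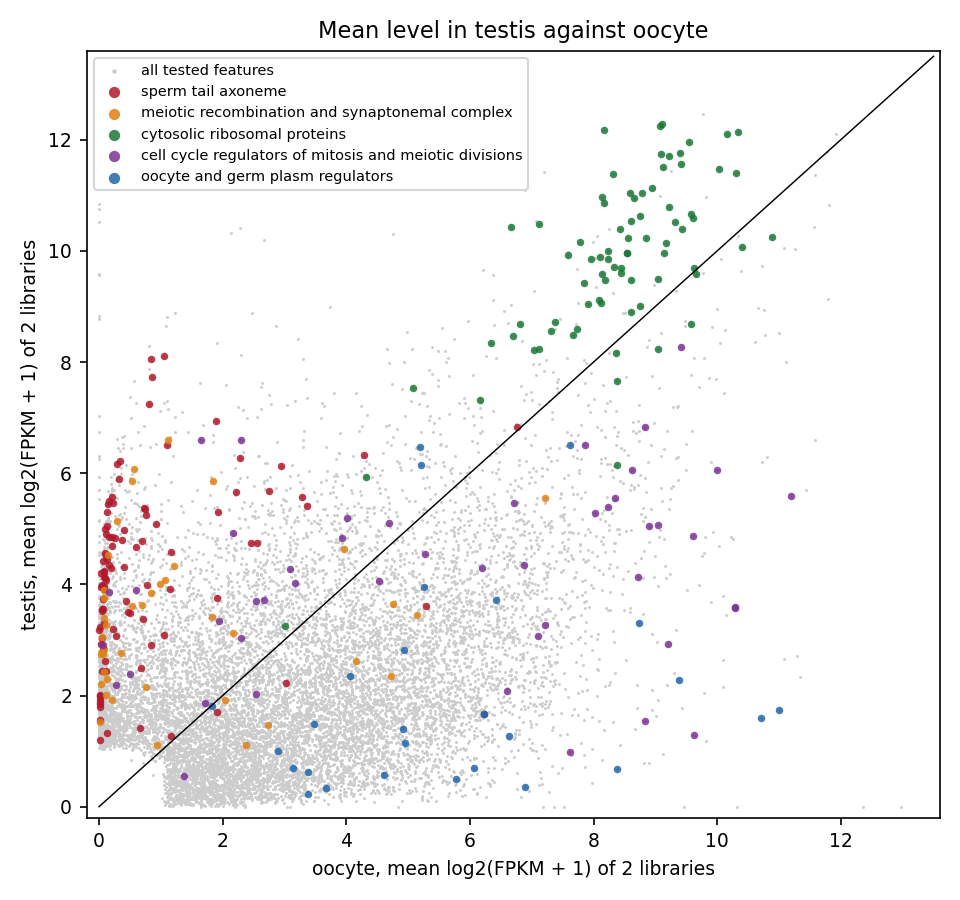
Mean log2(FPKM + 1) of the 2 testis libraries (vertical axis) against that of the 2 oocyte libraries (horizontal axis) for the 12881 tested features in grey, with members of 5 gene lists in colour and the line of equal levels in black. Axoneme and meiosis genes crowd the left edge, where oocyte levels are near 0, ribosomal protein genes lie at high levels mostly above the line, and oocyte regulators lie mostly below it.

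The genes with the largest differences included secreted factors known from Sertoli and Leydig cells and genes whose products act in cilia and flagella. Among the 15 symbols with the largest difference on the testis side, gsdf, a growth factor of the TGF-beta family made by Sertoli cells in fish gonads, had 1217 and 1346 FPKM in testis, against 4.32 and 2.61 FPKM in oocyte (log2 difference 8.19 ± 0.37). The Leydig cell peptide hormone insl3 had 976 and 1899 FPKM in testis, against 4.84 and 3.05 FPKM in oocyte (log2 difference 8.13 ± 0.37). Genes were named here only where both testis libraries lay above both oocyte libraries, so that order was set by the choice. Smooth muscle transgelin, a feature named TAGLN (ENSDARG00000045408), had 328 and 615 FPKM in testis, against 1.45 and 0.893 FPKM in oocyte (log2 difference 7.71 ± 0.36). The alpha tubulin gene tuba7l had 445 and 501 FPKM in testis, against 1.72 and 1.01 FPKM in oocyte (log2 difference 7.66 ± 0.25). The other names included 4 whose products act in cilia and flagella. These were saxo2, with 221 and 315 FPKM in testis, against 0.88 and 0.709 FPKM in oocyte, cimip2b, with 197 and 277 FPKM in testis, against 0.876 and 0.644 FPKM in oocyte, dnaaf2, with 305 and 245 FPKM in testis, against 1.18 and 0.978 FPKM in oocyte, and dynlrb2, with 195 and 226 FPKM in testis, against 0.943 and 0.675 FPKM in oocyte. A cytochrome c oxidase subunit, the feature ENSDARG00000068738 named COX5B, had 189 and 215 FPKM in testis, against 0.654 and 0.316 FPKM in oocyte. The gene lim2.2 had 132 and 203 FPKM in testis and mlf1 had 147 and 160.0 FPKM in testis, and both stayed under 1 FPKM in both oocyte libraries. So did saxo2, cimip2b, dynlrb2 and COX5B. The filter thus fixed the direction of all these, and of the microRNA features named next. In 3 microRNA precursor features, MIR92A1, MIRLET7I and dre-mir-30b, the oocyte libraries were listed at 0 and the testis libraries at 1725 and 1244, 649 and 915, and 259 and 739 FPKM, and no fold is given because FPKM of such short features is unstable. The call of dre-mir-30b was lost when any 1 of the 4 libraries was left out, with differences of 8.02 to 9.53.

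At the other end stood RNAs of the egg. The egg linker histone h1m had 1.88 and 2.15 FPKM in testis, against 1495 and 1852 FPKM in oocyte (log2 difference -9.11 ± 0.23). The gene cth1, which encodes a CCCH zinc finger protein, had 2.17 and 2.52 FPKM in testis, against 2358 and 1777 FPKM in oocyte (log2 difference -9.26 ± 0.26). Next came proteins of the egg surface and junctions. The claudin gene cldng had 3.47 and 4.66 FPKM in testis, against 2551 and 2619 FPKM in oocyte, the adhesion gene epcam 2.06 and 5.45 FPKM in testis, against 1137 and 1040.2 FPKM in oocyte, and the surface glycoprotein gene thy1 6.78 and 4.49 FPKM in testis, against 4312 and 1442 FPKM in oocyte. The egg membrane protein bouncer, which sperm need to enter the egg, had 1.52 and 1.06 FPKM in testis, against 1234 and 652 FPKM in oocyte (log2 difference -8.62 ± 0.35). A lysosomal protease of the cathepsin S family, ctss2.1, had 6.21 and 4.5 FPKM in testis, against 2562 and 1811 FPKM in oocyte, and the lysosomal thioesterase PPT2 (ENSDARG00000093176) had 3.17 and 3.08 FPKM in testis, against 1058 and 729 FPKM in oocyte. Nuclear and RNA-handling genes made up the rest. The survivin copy birc5b had 1.66 and 1.24 FPKM in testis, against 819 and 764 FPKM in oocyte, the importin alpha gene kpna7 0.778 and 0.654 FPKM in testis, against 379 and 599 FPKM in oocyte, the DNA helicase gene pif1 0.681 and 0.782 FPKM in testis, against 406 and 493 FPKM in oocyte, the U6 snRNA-binding gene LSM2 (ENSDARG00000103066) 0.83 and 1.03 FPKM in testis, against 569 and 543 FPKM in oocyte and the deadenylation adaptor btg4 0.604 and 0.615 FPKM in testis, against 324 and 338 FPKM in oocyte. Genes were named here only where both testis libraries lay below both oocyte libraries, so that order was set by the choice. Of these, kpna7, pif1 and btg4 were under 1 FPKM in both testis libraries, so the filter fixed their direction too. The mitochondrial genes MT-ATP6 and MT-CO3 also fell in this group because both testis libraries were listed at 0, and they are taken up with the other mitochondrial genes.

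**Figure D2:**
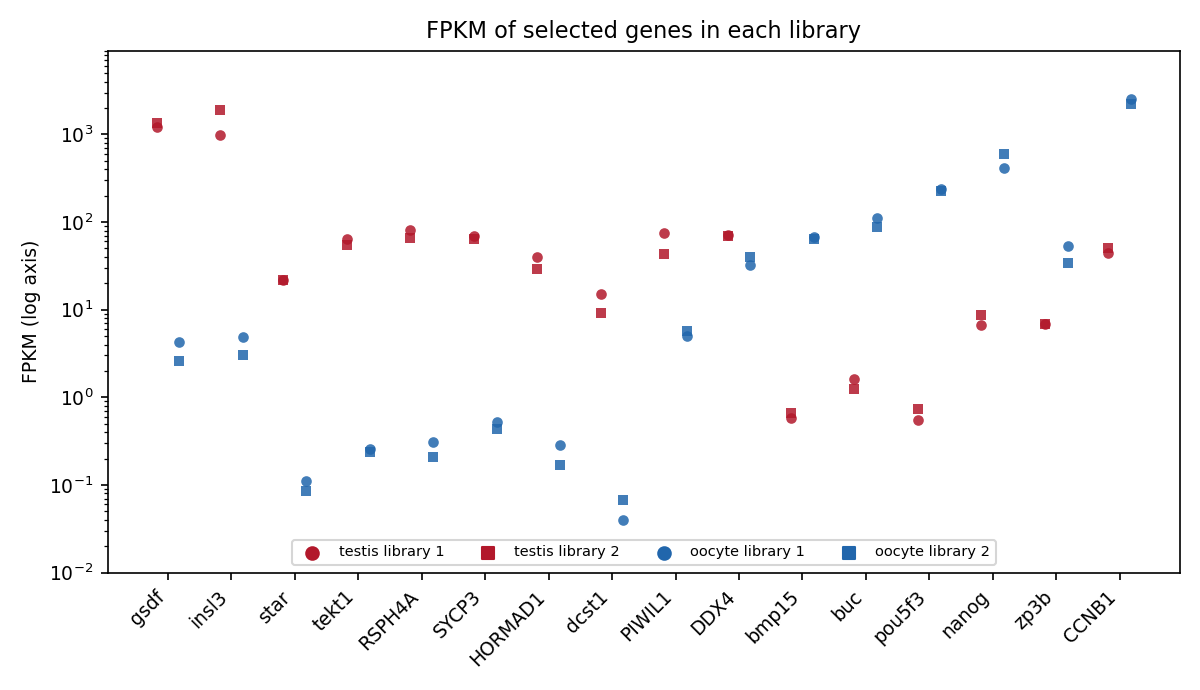
FPKM on a log axis for 16 genes, with testis libraries in red on the left of each gene and oocyte libraries in blue on its right (circles, library 1; squares, library 2). The red and blue symbols do not overlap for any of the 16 genes.

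Genes of the egg coat and egg surface were higher in the egg, with a pair of exceptions. Of 20 tested members, 2 rose and 18 fell in testis (2 and 16 after scaling), with a median difference of -2.96. Of the 20, 12 reached 1 FPKM in both testis libraries. Members under 1 FPKM in both, such as ca15b, entered through their egg level alone, so the filter fixed their direction. The 2 that rose were under 1 FPKM in both oocyte libraries, so the filter fixed theirs as well. The zona pellucida genes, which encode the filaments of the egg envelope, were only moderately abundant in the egg itself. The most abundant of them, zp3a.2, had 2.37 and 1.87 FPKM in testis, against 81.3 and 62.7 FPKM in oocyte (log2 difference -4.54 ± 0.27), and zp3b had 6.87 and 6.89 FPKM in testis, against 52.7 and 34.4 FPKM in oocyte (log2 difference -2.47 ± 0.30). For comparison zp3b had 1609 and 2445 FPKM in the ovary libraries. The carbonic anhydrase family member ca15b had 0.279 and 0.218 FPKM in testis, against 86.4 and 134 FPKM in oocyte (log2 difference -6.44 ± 0.24). The oogenesis-related gene org had 73.3 and 125 FPKM in testis, against 3958 and 2351 FPKM in oocyte (log2 difference -4.98 ± 0.50). Running against the rest, zp3d.2 had 7.49 and 7.16 FPKM in testis, against 0.68 and 0.676 FPKM in oocyte (log2 difference 2.31 ± 0.18) and zp2l2 had 3.14 and 5.51 FPKM in testis, against 0.28 and 0.244 FPKM in oocyte (log2 difference 2.04 ± 0.25), and both testis libraries lay above both oocyte libraries for each. Copies of the zp2 family are nearly alike, so reads may have been split between them, and zp2.1, zp2.2, zp2.3, zp2.5 and zp2.6 are listed at 0 in both ovary libraries. One more member, cldnd, was left out for exceeding 10000 FPKM in an oocyte library.

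Regulators of oocyte growth and germ plasm followed the same course. Among 27 tested members, 1 rose and 24 fell in testis (2 and 18 after scaling), with a median difference of -3.34. Of the 27, 17 reached 1 FPKM in both testis libraries. Members under 1 FPKM in both, such as buc2l, bmp15, gdf9, figla and nanos3, entered through their egg level alone, so the filter fixed their direction. The organizer of germ plasm, buc, had 1.61 and 1.26 FPKM in testis, against 112 and 87.3 FPKM in oocyte (log2 difference -5.36 ± 0.29). Its relative buc2l had 0.323 and 0.237 FPKM in testis, against 88.8 and 157 FPKM in oocyte (log2 difference -6.54 ± 0.28). The oocyte growth factors were lower in testis too, bmp15 with 0.588 and 0.66 FPKM in testis, against 66.96 and 64.5 FPKM in oocyte and gdf9 with 0.442 and 0.635 FPKM in testis, against 7.75 and 11.4 FPKM in oocyte. The RNA-binding gene zar1l had 3.66 and 4.12 FPKM in testis, against 602 and 732 FPKM in oocyte (log2 difference -7.09 ± 0.22). Its relative zar1 had 1.93 and 1.67 FPKM in testis, against 11.3 and 9.06 FPKM in oocyte, and its call was lost after scaling (-0.95). Histone mRNA in the egg is bound by slbp2, which had 6.41 and 12.3 FPKM in testis, against 527 and 343 FPKM in oocyte (log2 difference -5.42 ± 0.39). The kinase gene mos, which holds mature eggs in metaphase arrest, had 1.75 and 2.64 FPKM in testis, against 94.8 and 58.1 FPKM in oocyte (log2 difference -4.57 ± 0.28). The transcription factor gene figla, needed for oocyte formation, had 0.488 and 0.764 FPKM in testis, against 9.31 and 6.52 FPKM in oocyte (log2 difference -2.44 ± 0.23).

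Genes used by germ cells of both sexes were abundant in testis and egg alike. The RNA helicase gene ddx4, or vasa, had 70.8 and 68.97 FPKM in testis, against 32.3 and 40.02 FPKM in oocyte (log2 difference 0.94 ± 0.18), a difference not called on the deposited scale and called higher in testis after scaling, or without oocyte library 2 (1.09). The translation regulator dazl had 68.2 and 117 FPKM in testis, against 159 and 239 FPKM in oocyte (log2 difference -1.11 ± 0.39), called lower on the deposited scale but at 0.22 and not called after scaling. Its call was also lost without testis library 1 (-0.73) or oocyte library 2 (-0.82). The gene dnd1, which protects germ cell mRNA, had 12.5 and 16.7 FPKM in testis, against 31.8 and 43.7 FPKM in oocyte (log2 difference -1.31 ± 0.23), a call lost after median-of-ratios scaling and a sign that turned under quantile normalization (0.21). The granule component tdrd7a was the single member called higher in testis, with 67.7 and 113 FPKM in testis, against 30.5 and 41.8 FPKM in oocyte (log2 difference 1.27 ± 0.32). Without testis library 2 its difference was 0.90 and the list had 0 members called higher, and without oocyte library 2 the list had 2. Germ plasm RNA nanos3 was in contrast far lower in testis, with 0.533 and 0.428 FPKM in testis, against 21.8 and 25.05 FPKM in oocyte (log2 difference -4.04 ± 0.18).

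Most embryo-patterning RNAs of the egg store were lower in testis, although 20 of the 27 tested still reached 1 FPKM in both testis libraries. Of 27 tested maternal axis and genome activation factors, 0 rose and 24 fell (3 and 20 after scaling), with a median difference of -3.58. Members under 1 FPKM in both testis libraries, such as pou5f3 and foxh1, entered through their egg level alone, so the filter fixed their direction. The 3 not called were called higher after scaling. They were the RNA-binding protein gene ybx1, with 269 and 317 FPKM in testis, against 351 and 323 FPKM in oocyte, the transcription factor gene tcf7l1b, with 5.71 and 6.14 FPKM in testis, against 4.7 and 3.11 FPKM in oocyte, and the Nodal ligand gene ndr1, with 3.45 and 2.14 FPKM in testis, against 1.2 and 0.598 FPKM in oocyte. Factors that open the zygotic genome were among those that fell. For pou5f3 the values were 0.545 and 0.743 FPKM in testis, against 240.1 and 226 FPKM in oocyte (log2 difference -7.15 ± 0.23). The homeobox gene nanog had 6.71 and 8.7 FPKM in testis, against 412 and 593 FPKM in oocyte (log2 difference -5.84 ± 0.26), and sox19b had 2.71 and 3.03 FPKM in testis, against 44.7 and 45.7 FPKM in oocyte (log2 difference -3.58 ± 0.21). Dorsal determinants fell as well. The gene hwa, or huluwa, had 1.09 and 1.36 FPKM in testis, against 49.2 and 23.3 FPKM in oocyte (log2 difference -3.97 ± 0.38), the microtubule linker gene sybu had 1.39 and 1.39 FPKM in testis, against 90.9 and 121 FPKM in oocyte (log2 difference -5.47 ± 0.21), and the beta-catenin gene ctnnb2 had 42.03 and 64.98 FPKM in testis, against 638 and 582 FPKM in oocyte (log2 difference -3.52 ± 0.28). Signals of the Nodal and BMP routes were represented by gdf3, with 1.22 and 1.19 FPKM in testis, against 122 and 396 FPKM in oocyte, the Smad partner foxh1, with 0.175 and 0.157 FPKM in testis, against 26.1 and 24.6 FPKM in oocyte, and smad5, with 21.4 and 31.3 FPKM in testis, against 298 and 354 FPKM in oocyte. Oocyte libraries differed from each other by over 3-fold for gdf3 and for 1 of 2 features named WNT8A (ENSDARG00000052910), which was at or near 0 in both testis libraries, against 1.98 and 7.76 FPKM in oocyte.

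Genes for proteins that store, silence and remove maternal mRNA were lower in testis more often than higher. Of 42 tested members, 5 rose and 27 fell in testis (12 and 19 after scaling), with a median difference of -1.75 on the deposited scale and -0.64 after scaling. Members under 1 FPKM in both testis libraries, such as patl2, igf2bp3 and pabpc1l, entered through their egg level alone, so the filter fixed their direction. The egg side held the feature named CPEB1, whose product binds the cytoplasmic polyadenylation element, with 3.85 and 4.03 FPKM in testis, against 224 and 242 FPKM in oocyte (log2 difference -5.57 ± 0.18). It also held patl2, with 0.54 and 0.585 FPKM in testis, against 32.8 and 24.7 FPKM in oocyte, lsm14b, with 4.92 and 7.85 FPKM in testis, against 119 and 80.5 FPKM in oocyte, igf2bp3, with 0.323 and 0.311 FPKM in testis, against 15.9 and 18.7 FPKM in oocyte, and the deadenylase subunit cnot8, with 20.5 and 26.2 FPKM in testis, against 294 and 350.1 FPKM in oocyte. The testis side held its copy cpeb1a, with 5.2 and 6.82 FPKM in testis, against 1.32 and 0.434 FPKM in oocyte (log2 difference 1.93 ± 0.34), and the scaffold of the same deadenylase, cnot1, with 77.6 and 84.8 FPKM in testis, against 16.8 and 11.2 FPKM in oocyte (log2 difference 2.48 ± 0.22). The m6A reader ythdf2 was higher in testis as well, with 23.7 and 27.7 FPKM in testis, against 6.23 and 10.1 FPKM in oocyte (log2 difference 1.57 ± 0.25). Among cytoplasmic poly(A)-binding proteins, pabpc1b had 129.8 and 154 FPKM in testis, against 5.96 and 4.49 FPKM in oocyte (log2 difference 4.53 ± 0.22). In the opposite direction pabpc1l had 0.36 and 0.322 FPKM in testis, against 68.7 and 86.9 FPKM in oocyte (log2 difference -5.87 ± 0.20) and pabpc1a had 250.0 and 287 FPKM in testis, against 819 and 954 FPKM in oocyte (log2 difference -1.72 ± 0.29), although the call of pabpc1a was lost after scaling.

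Cell cycle regulators took a larger share of FPKM in the egg, while their counts of calls lay near those of all features. Their summed share of FPKM was 0.495% and 0.466% in the testis libraries, against 2.76% and 2.92% in the oocyte libraries. Of 48 tested members, 13 rose and 26 fell in testis (18 and 21 after scaling), with a median difference of -1.30 (-0.12 after scaling), against 23.8% higher, 48.4% lower and a median of -0.93 over all features. Cyclins that drive M phase were among those that fell furthest. Cyclin ccnb1 had 43.9 and 51.2 FPKM in testis, against 2526 and 2194 FPKM in oocyte (log2 difference -5.61 ± 0.33), ccnb2 had 10.1 and 11.9 FPKM in testis, against 1173 and 1316 FPKM in oocyte (log2 difference -6.70 ± 0.22) and ccna1 had 11.3 and 10.9 FPKM in testis, against 1232 and 1268 FPKM in oocyte (log2 difference -6.69 ± 0.22). Cyclin E gene ccne1 had 2.14 and 1.72 FPKM in testis, against 399 and 515 FPKM in oocyte (log2 difference -7.28 ± 0.22), while its relative ccne2 went the other way with 5.31 and 3.37 FPKM in testis, against 0.596 and 0.261 FPKM in oocyte (log2 difference 1.89 ± 0.22). Both oocyte libraries were under 1 FPKM for 5 of the 48 members, ccne2 among them. These entered through their testis level alone, so the filter fixed their direction. The oocyte kinase wee2, which restrains Cdk1, had 5.8 and 7.52 FPKM in testis, against 546 and 632 FPKM in oocyte (log2 difference -6.27 ± 0.22). Inhibitors of the anaphase-promoting complex fell too, fbxo43 with 21.5 and 36.6 FPKM in testis, against 1037 and 581 FPKM in oocyte and fbxo5 with 7.09 and 7.64 FPKM in testis, against 133 and 140.0 FPKM in oocyte. The same was seen for mitotic kinases, aurka with 13.9 and 19.6 FPKM in testis, against 402 and 436 FPKM in oocyte and plk1 with 32.3 and 33.05 FPKM in testis, against 429 and 643 FPKM in oocyte. The catalytic partner of these cyclins, cdk1, was higher in testis, with 32.4 and 38.9 FPKM in testis, against 15.996 and 14.3 FPKM in oocyte (log2 difference 1.18 ± 0.18). The testis side also held ccnd3, a cyclin D gene, with 73.3 and 124 FPKM in testis, against 4.34 and 3.56 FPKM in oocyte (log2 difference 4.29 ± 0.30), and the Cdk subunit cks2, with 80.5 and 114 FPKM in testis, against 2.77 and 1.6 FPKM in oocyte (log2 difference 4.95 ± 0.30).

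Of the spermatogonial and early germ cell genes that were tested, few were called higher in testis than in the egg. Among 14 tested members of 23 matched features, 1 rose and 11 fell in testis (2 and 9 after scaling). Only 7 of the 14 reached 1 FPKM in both testis libraries. Members under 1 FPKM in both, such as pou5f3, nanos3, sall4 and the LIN28A feature, entered through their egg level alone, so the filter fixed their direction. Of those that fell, pou5f3, nanog, nanos3, dnd1 and dazl also stand on the egg lists above. Beyond these, the pluripotency factor gene sall4 had 0.702 and 0.598 FPKM in testis, against 23.5 and 94.1 FPKM in oocyte, and the tested LIN28A feature (ENSDARG00000016999) had 0.101 and 0.0137 FPKM in testis, against 5.28 and 7.16 FPKM in oocyte. The member called higher on the deposited scale was piwil1, described with its pathway, and 2 were called without oocyte library 2. Some markers of spermatogonial stem cells did not pass the filter, as GFRA1 had 0.0989 and 0.0345 FPKM in testis, against 0 and 0.00647 FPKM in oocyte and id4 had 0.352 and 0.214 FPKM in testis, against 0.0645 and 0.0181 FPKM in oocyte. The marker named ZBTB16 was tested. It had 0.489 and 0.356 FPKM in testis, against 1.18 and 1.49 FPKM in oocyte (log2 difference -0.71 ± 0.18), and was called on neither scale. In the whole organ, fewer cells of a type and less RNA per cell cannot be told apart.

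Meiotic recombination and synaptonemal complex genes were mostly higher in testis and low in the mature egg. Of 41 tested members, 30 rose and 7 fell in testis (32 and 1 after scaling), with a median difference of 2.69. Testis levels reached 1 FPKM in both libraries for 40 of the 41, and oocyte levels stayed under 1 FPKM in both for 23. Those 23 entered through their testis level alone, so their direction was fixed by the filter. The axial element gene sycp3 had 68.4 and 63.8 FPKM in testis, against 0.521 and 0.438 FPKM in oocyte (log2 difference 5.50 ± 0.18). The transverse filament gene sycp1 had 78.1 and 41.5 FPKM in testis, against 0.36 and 0.541 FPKM in oocyte (log2 difference 5.32 ± 0.40), and the central element gene syce2 had 59.1 and 55.5 FPKM in testis, against 2.9 and 2.28 FPKM in oocyte (log2 difference 4.03 ± 0.19). Meiotic cohesin was represented by stag3, with 98.9 and 93.9 FPKM in testis, against 1.57 and 0.835 FPKM in oocyte, smc1b, with 28.8 and 16.7 FPKM in testis, against 0.138 and 0.0685 FPKM in oocyte, and rec8b, with 9.46 and 7.95 FPKM in testis, against 0.145 and 0.0122 FPKM in oocyte. The axis protein gene hormad1 had 39.8 and 29.4 FPKM in testis, against 0.283 and 0.167 FPKM in oocyte (log2 difference 4.85 ± 0.21). Strand exchange is carried out by dmc1, which had 16.7 and 9.31 FPKM in testis, against 0.0457 and 0.0694 FPKM in oocyte (log2 difference 3.68 ± 0.26). The nuclease that makes the breaks, spo11, had 7.6 and 7.9 FPKM in testis, against 2.92 and 4.13 FPKM in oocyte (log2 difference 0.96 ± 0.22), called only after scaling or without oocyte library 2 (1.16). The cohesin protectors were called lower only before scaling, sgo1 with 30.96 and 68.7 FPKM in testis, against 171 and 126 FPKM in oocyte and sgo2 with 12.6 and 7.81 FPKM in testis, against 29.1 and 40.2 FPKM in oocyte. In 32 of 41 members testis library 1 was above library 2, as in sycp1 and dmc1, against 7414 of 12881 features in the whole table.

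The piRNA pathway, which silences transposons in germ cells of both sexes, was present on both sides. Of 20 tested members, 8 rose and 3 fell in testis (15 and 3 after scaling), with a median difference of 0.80, and all 20 had at least 1 FPKM in all 4 libraries. Over all features 23.8% were higher and 48.4% lower. The Piwi gene piwil1 had 74.8 and 43.6 FPKM in testis, against 4.98 and 5.76 FPKM in oocyte (log2 difference 3.19 ± 0.28), whereas piwil2 had 37.6 and 27.5 FPKM in testis, against 25.4 and 15.7 FPKM in oocyte (log2 difference 0.66 ± 0.27) and was called only after scaling. Higher in testis were the helicase gene tdrd9, with 18.7 and 14.97 FPKM in testis, against 1.54 and 1.52 FPKM in oocyte (log2 difference 2.81 ± 0.21), and exd1, with 144 and 248 FPKM in testis, against 56.4 and 34.1 FPKM in oocyte (log2 difference 2.09 ± 0.38). Lower in testis were gtsf1, a zinc finger partner of Piwi proteins, with 102 and 114 FPKM in testis, against 816 and 721 FPKM in oocyte (log2 difference -2.82 ± 0.29), tdrkh, with 11.8 and 10.04 FPKM in testis, against 69.4 and 113 FPKM in oocyte (log2 difference -2.91 ± 0.30), and tdrd15, with 2.43 and 1.02 FPKM in testis, against 6.87 and 16.5 FPKM in oocyte (log2 difference -2.16 ± 0.42). All 3 of these remained lower after scaling.

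Genes of the sperm tail axoneme formed the broadest difference on the testis side. Of 104 matched features 97 were tested, of which 91 rose and 1 fell in testis (93 and 0 after scaling), with a median difference of 3.52. Every tested member had at least 1 FPKM in both testis libraries, and 73 stayed under 1 FPKM in both oocyte libraries. The filter asks for 1 FPKM in 2 libraries, so members near 0 in the egg entered the test through their testis level. Their summed share of FPKM was 1.17% and 0.848% in the testis libraries, against 0.0593% and 0.0471% in the oocyte libraries.

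Tested members of each part of the axoneme were mostly higher in testis. Both oocyte libraries were under 1 FPKM for 8 heavy chains, 5 assembly factors and 17 CFAP genes. The same held for all tested intermediate chains, radial spoke genes, tektins and odad genes. These members entered through their testis level alone, so their direction was fixed by the filter. The outer and inner arm motors are axonemal dynein heavy chains, and 9 of 12 features were tested and 9 rose, with differences of 1.19 to 4.64. The largest difference was that of dnah5l, with 35.3 and 21.8 FPKM in testis, against 0.246 and 0.0752 FPKM in oocyte (log2 difference 4.64 ± 0.26), and dnah7 was the one member above 1 FPKM in the egg, with 28.3 and 23.7 FPKM in testis, against 3.69 and 5.51 FPKM in oocyte (log2 difference 2.28 ± 0.24). All 9 were higher in testis library 1 than in library 2, with a median ratio of library 2 to library 1 of 0.615, against 0.943 over all tested features. Intermediate chains rose in 5 of 5 tested features, and the more abundant of 2 features named DNAI1 (ENSDARG00000100081) had 44.2 and 33.8 FPKM in testis, against 0.128 and 0.064 FPKM in oocyte (log2 difference 5.18 ± 0.20). Radial spoke genes rose in 6 of 6. The spoke head genes stood out, rsph4a with 81.03 and 65.97 FPKM in testis, against 0.308 and 0.21 FPKM in oocyte and rsph9 with 64.4 and 78.1 FPKM in testis, against 0.285 and 0.173 FPKM in oocyte. Dynein assembly factors, which act in the cytoplasm before the motors enter the flagellum, rose in 7 of 7, with differences of 2.08 to 7.05. Tektins, filament proteins inside the microtubule doublets, rose in 4 of 4, and tekt1 had 63.3 and 54.3 FPKM in testis, against 0.254 and 0.236 FPKM in oocyte (log2 difference 5.58 ± 0.19). Docking complex genes of the odad family rose in 4 of 4, with differences of 4.03 to 4.90. Of 23 CFAP genes, 21 rose and 1 fell (21 and 0 after scaling).

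The exceptions among axoneme genes were few. The gene cfap298 had 12.7 and 9.8 FPKM in testis, against 42.5 and 34.05 FPKM in oocyte (log2 difference -1.68 ± 0.25), lower in testis on the deposited scale and not called after scaling. The gene odf3l2a was abundant on both sides, with 100.6 and 127 FPKM in testis, against 144 and 80.1 FPKM in oocyte (log2 difference 0.07 ± 0.37), and stk36 had 3.85 and 3.49 FPKM in testis, against 7 and 7.2 FPKM in oocyte (log2 difference -0.80 ± 0.18). Neither was called on the deposited scale, and odf3l2a was called higher after scaling.

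Intraflagellar transport, the traffic that builds a flagellum and that many cells also use for a primary cilium, differed less. Of 41 tested transport and BBSome members, 23 rose and 3 fell in testis (34 and 0 after scaling), with a median difference of 1.29. In 14 of the 41, among them ift88 and ift81, both oocyte libraries were under 1 FPKM. These entered through their testis level alone, so the filter fixed their direction. The transport protein gene ift46 had the largest difference, with 91.4 and 84.5 FPKM in testis, against 1.07 and 0.512 FPKM in oocyte (log2 difference 5.65 ± 0.22). Core genes rose as well, ift88 with 15.2 and 9.2 FPKM in testis, against 0.766 and 0.399 FPKM in oocyte and ift81 with 19.5 and 12.8 FPKM in testis, against 0.572 and 0.94 FPKM in oocyte. The 3 that fell were kif3a, kif3b and 1 of 2 features named KIFAP3 (ENSDARG00000006862), which are subunits of kinesin-2, the motor of this traffic. Their values were 7.21 and 4.2 FPKM in testis, against 9.03 and 19.2 FPKM in oocyte, then 7.13 and 6.94 FPKM in testis, against 12.6 and 20.5 FPKM in oocyte, then 3.91 and 1.47 FPKM in testis, against 7.97 and 11.7 FPKM in oocyte. The list had 1 member called lower when testis library 2 or oocyte library 2 was left out, and 0 after scaling, where kif3a was at 0.077 and kif3b at 0.14, of opposite sign. Without testis library 2 the differences of kif3a and kif3b were -0.79 and -1.07, without oocyte library 2 they were -0.62 and -0.75, and without testis library 1 that of kif3a was -1.45, none of them called. The other KIFAP3 feature (ENSDARG00000008639) had 5.45 and 5.18 FPKM in testis, against 0.489 and 0.966 FPKM in oocyte (log2 difference 1.88 ± 0.19).

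Transcription factors of cilia and of spermatogenesis were divided. Of 21 tested members, 10 rose and 3 fell in testis (16 and 3 after scaling), with a median difference of 0.93. In 8 of the 21 both oocyte libraries were under 1 FPKM, among them the FOXJ1 feature, foxj1b, cremb and hsf5. These entered through their testis level alone, so the filter fixed their direction. Over all features 23.8% were higher and 48.4% lower. The master regulator of motile cilia, foxj1, was represented by a feature named FOXJ1, with 11.5 and 13.2 FPKM in testis, against 0.0698 and 0.0332 FPKM in oocyte (log2 difference 3.66 ± 0.15), and by foxj1b, with 5.59 and 5 FPKM in testis, against 0.0417 and 0.0122 FPKM in oocyte (log2 difference 2.61 ± 0.12). Its partner rfx3 was the most abundant, with 130.5 and 177 FPKM in testis, against 10.02 and 12.5 FPKM in oocyte (log2 difference 3.65 ± 0.29), and rfx2 had 19.4 and 25.3 FPKM in testis, against 9.08 and 7.12 FPKM in oocyte (log2 difference 1.36 ± 0.21). The spermatid activator CREM is known from mammals, and of its copies here cremb had 63.2 and 58.9 FPKM in testis, against 0.213 and 0.254 FPKM in oocyte (log2 difference 5.65 ± 0.19), while crema had 1.4 and 1.66 FPKM in testis, against 1.2 and 0.716 FPKM in oocyte (log2 difference 0.38 ± 0.21) and was called only after scaling. The heat shock factor gene hsf5 had 103 and 126 FPKM in testis, against 0.784 and 0.551 FPKM in oocyte (log2 difference 6.11 ± 0.21). Lower in testis were tbpl1, a TBP-related factor required for spermatids in mice, with 6.52 and 5.29 FPKM in testis, against 62.7 and 80.1 FPKM in oocyte (log2 difference -3.39 ± 0.21), taf7, with 8.52 and 7.43 FPKM in testis, against 47.2 and 58.3 FPKM in oocyte, and 1 of 2 features named RFX7 (ENSDARG00000103691), with 2.67 and 1.9 FPKM in testis, against 15.5 and 18.5 FPKM in oocyte.

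Spermatid and sperm function genes were also higher in testis. Of 32 tested members, 24 rose and 5 fell (27 and 3 after scaling), with a median difference of 2.81. For 17 of them both oocyte libraries were under 1 FPKM, so these entered through their testis level alone and their direction was fixed by the filter. Among proteins of the sperm surface, dcst1 had 15.01 and 9.19 FPKM in testis, against 0.0397 and 0.0675 FPKM in oocyte (log2 difference 3.60 ± 0.23), dcst2 had 18.02 and 15.9 FPKM in testis, against 0.0861 and 0.0283 FPKM in oocyte (log2 difference 4.08 ± 0.16) and tmem81 had 22.8 and 39.7 FPKM in testis, against 0.161 and 0.0403 FPKM in oocyte (log2 difference 4.82 ± 0.28). By contrast spaca6, which sperm need for fertilization, was at 0.0579 and 0.0543 FPKM in testis and did not enter the test. The sperm isoform of a glycolytic enzyme, gapdhs, had 165 and 223 FPKM in testis, against 3.63 and 2.74 FPKM in oocyte (log2 difference 5.53 ± 0.22). The sperm microtubule gene spmap2 had 47.1 and 37.6 FPKM in testis, against 0.157 and 0.0583 FPKM in oocyte (log2 difference 5.28 ± 0.22). The 5 that fell were adad2, septin12, hook1, hvcn1 and spata7, and the first 3 were still called after scaling. Of these, adad2 had 2.5 and 2.03 FPKM in testis, against 21.04 and 31.9 FPKM in oocyte (log2 difference -3.05 ± 0.28) and septin12 had 0.47 and 0.403 FPKM in testis, against 6.48 and 9.14 FPKM in oocyte (log2 difference -2.60 ± 0.21). The genes septin12, hook1 and spata7 were under 1 FPKM in both testis libraries. They entered through their egg level alone, so the filter fixed their direction.

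Tubulins and kinesins, the tracks and motors of spindles as well as of flagella, were divided. Of 12 tested tubulins 6 rose and 2 fell in testis (10 and 1 after scaling, and 1 fell when testis library 1 or oocyte library 2 was left out). The egg counterpart of tuba7l was tuba4l, with 9.24 and 12.1 FPKM in testis, against 492 and 264 FPKM in oocyte (log2 difference -4.96 ± 0.39). The most abundant beta tubulin, tubb4b, was abundant in both, with 644 and 686 FPKM in testis, against 569.6 and 441 FPKM in oocyte (log2 difference 0.41 ± 0.40), not called on the deposited scale and called higher in testis after scaling. Of 29 tested kinesins, 6 rose and 22 fell in testis (6 and 15 after scaling), with a median difference of -2.02, and 3 rose without testis library 1. Over all features 23.8% were higher and 48.4% lower. Motors of the spindle were among the kinesins that fell. The midzone kinesin kif23 had 18.7 and 17.2 FPKM in testis, against 347 and 403 FPKM in oocyte (log2 difference -4.31 ± 0.20), kif4a had 4.51 and 5.15 FPKM in testis, against 129 and 162 FPKM in oocyte (log2 difference -4.64 ± 0.29) and the spindle motor kif11 had 25.6 and 16.2 FPKM in testis, against 199 and 274 FPKM in oocyte (log2 difference -3.46 ± 0.28). Highest of the kinesins in testis relative to the egg was kif9, a flagellar motor, with 24.1 and 16.5 FPKM in testis, against 0.0729 and 0.0405 FPKM in oocyte (log2 difference 4.31 ± 0.21). Both oocyte libraries were under 1 FPKM for 4 of the 29 kinesins, kif9 among them, and for 2 of the 12 tubulins. Kinesins such as kif19 and kif21b were under 1 FPKM in both testis libraries. All of these entered through 1 tissue alone, so the filter fixed their direction.

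**Figure D3:**
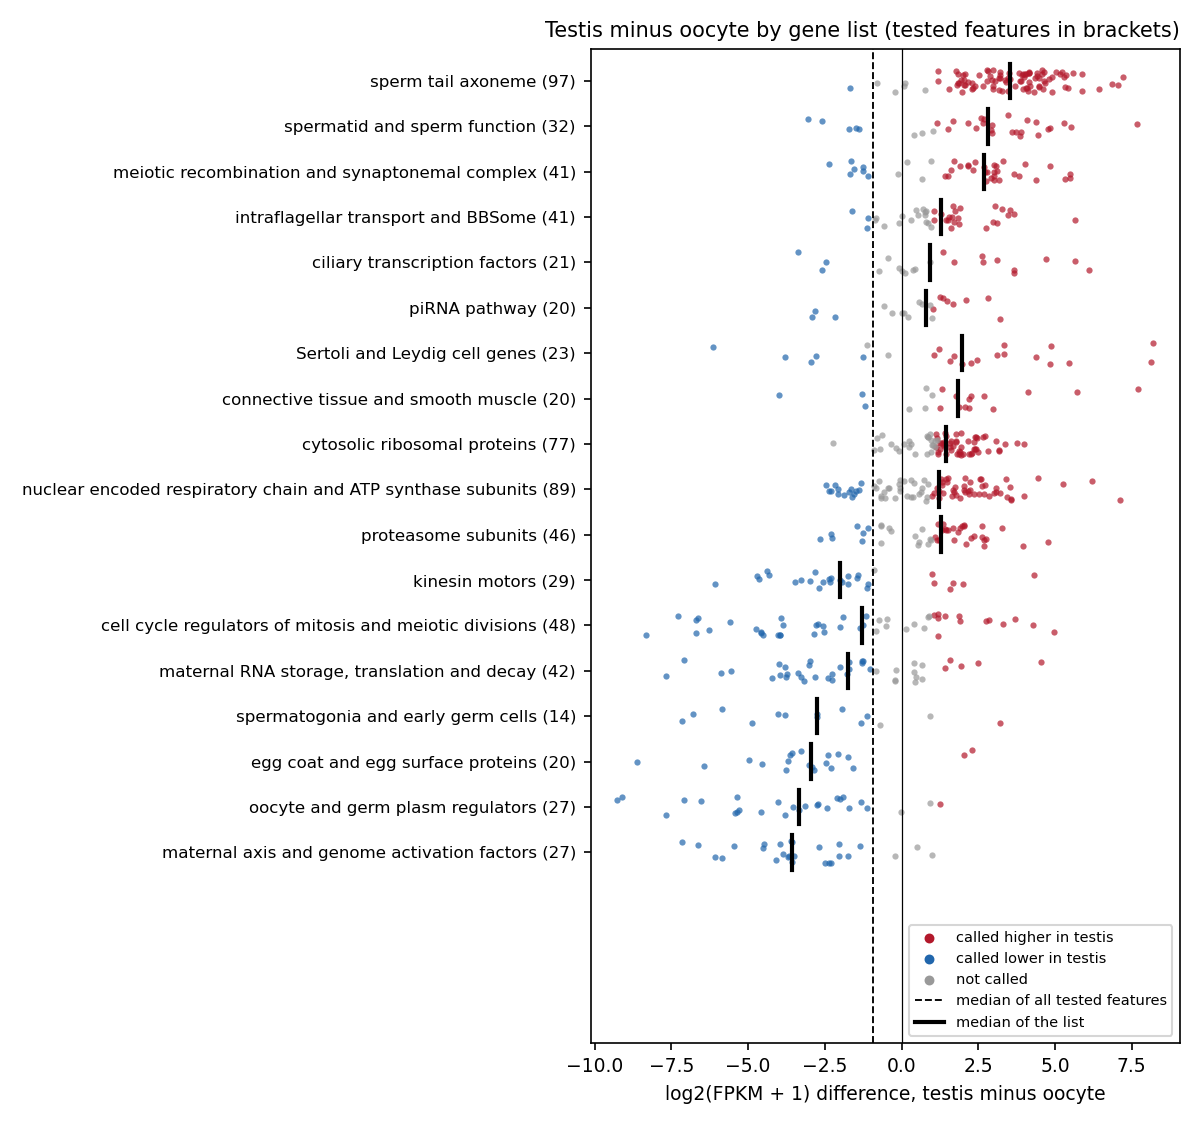
Difference in log2(FPKM + 1), testis minus oocyte, for every tested member of 18 gene lists (points, red called higher in testis, blue called lower, grey not called), with the median of each list as a thick bar and the median of all 12881 tested features (-0.93) as a dashed line. Medians run from 3.52 for the axoneme to -3.58 for maternal axis and genome activation factors.

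Somatic cells of the testis were visible through their hormones. Of 23 tested Sertoli and Leydig cell genes, out of 42 matched features, 16 rose and 5 fell in testis (16 and 4 after scaling), with a median difference of 1.96. In 12 of the 23 both oocyte libraries were under 1 FPKM, so the filter fixed their direction. The Sertoli cell hormone amh had 10.4 and 8.65 FPKM in testis, against 0.0298 and 0.0392 FPKM in oocyte (log2 difference 3.34 ± 0.15). The regulator of male sex differentiation dmrt1 had 18.7 and 17.9 FPKM in testis, against 0.883 and 1.63 FPKM in oocyte (log2 difference 3.12 ± 0.22), and the retinoic acid synthesis gene aldh1a2 had 26.6 and 35.9 FPKM in testis, against 0.112 and 0.0698 FPKM in oocyte (log2 difference 4.87 ± 0.24). Of the steps of androgen synthesis, cholesterol import by star had 21.9 and 21.97 FPKM in testis, against 0.11 and 0.0842 FPKM in oocyte (log2 difference 4.39 ± 0.16). The 11-beta-hydroxylase of fish androgens, cyp11c1, had 40.1 and 57.9 FPKM in testis, against 0.173 and 0.09 FPKM in oocyte (log2 difference 5.44 ± 0.23), and hsd3b1 had 8 and 12.7 FPKM in testis, against 0.148 and 0.0724 FPKM in oocyte (log2 difference 3.33 ± 0.24). The middle enzyme cyp17a1 was lower in testis, with 10.04 and 9.61 FPKM in testis, against 31.5 and 19.9 FPKM in oocyte (log2 difference -1.27 ± 0.30), a call lost after scaling and of opposite sign under quantile normalization (0.17). The call of cyp17a1 was also lost without testis library 1 (-1.30), testis library 2 (-1.24) or oocyte library 1 (-0.95). The receptors for gonadotropins were low, with 0.543 and 0.469 FPKM in testis for fshr and 0.257 and 0.103 FPKM in testis for lhcgr, and neither was tested. The other members that fell were cyp26a1, which breaks down retinoic acid, with 2.99 and 5.11 FPKM in testis, against 21.1 and 64.4 FPKM in oocyte (log2 difference -2.95 ± 0.51), ptgdsb.1 and ptgdsb.2, which encode prostaglandin D synthases, and 1 of 2 features named CYP11A1, taken up with the gene copies.

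Tested genes of connective tissue, red blood cells and white cells were mostly higher in testis, while vessel genes were low. The vessel marker kdrl had 0.643 and 0.454 FPKM in testis, against 0.53 and 0.456 FPKM in oocyte. In testis cdh5 had 0.173 and 0.0965 FPKM and tie1 0.0429 and 0.0484 FPKM. Among tested vessel genes tek and ESAM were called higher in testis, and erg lower, but the filter fixed the direction of each. The white cell marker lck had 0.316 and 0.251 FPKM in testis, against 0.229 and 0.179 FPKM in oocyte. Some genes leaned toward the egg on the deposited scale. The connective tissue marker lum had 0.0401 and 0.0599 FPKM in testis, against 0.193 and 0.298 FPKM in oocyte, and was not tested. The white cell genes rac2 (log2 difference -0.78 ± 0.24, and 0.22 after scaling) and ncf1 (-0.73 ± 0.12) were called on neither scale. The filter fixed the direction of ncf1, which was under 1 FPKM in both testis libraries. Of 20 tested connective tissue and smooth muscle genes, 13 rose and 3 fell in testis (17 and 1 after scaling), with a median difference of 1.82. In 10 of the 20 both oocyte libraries were under 1 FPKM, so the filter fixed their direction. The same held for 5 of the 10 tested white cell genes taken up below. The 3 connective tissue features that fell were under 1 FPKM in both testis libraries, as was erg. These entered through their egg level alone, so the filter fixed their direction as well. The smooth muscle actin acta2 had 65.4 and 74.5 FPKM in testis, against 0.485 and 0.227 FPKM in oocyte (log2 difference 5.71 ± 0.22). Collagen RNA was also found with the eggs, and differed between the egg libraries. The collagen gene col1a1a had 12.3 and 13.3 FPKM in testis, against 2.09 and 8.7 FPKM in oocyte (log2 difference 1.33 ± 0.53), and col1a2 had 8.84 and 9.62 FPKM in testis, against 2.56 and 8.56 FPKM in oocyte (log2 difference 0.81 ± 0.47). Oocyte library 2 held more than 3 times the level of library 1 for both. The call of col1a1a was lost without testis library 1 (1.38), testis library 2 (1.28), oocyte library 1 (0.50) or either ovary library, and col1a2 was called higher without oocyte library 2 (1.52). Of 22 matched vessel and red blood cell features 6 were tested, 5 of them through their testis level alone, and 5 rose and 1 fell in testis (5 and 0 after scaling, and 0 fell without either of the testis libraries), and the alpha globin gene hbaa1 had 16.4 and 73.9 FPKM in testis, against 0.368 and 0.184 FPKM in oocyte (log2 difference 4.83 ± 0.65). Of 10 tested white cell genes 6 rose and 0 fell (8 and 0 after scaling, and 1 fell without oocyte library 1), among them cd74a, a chaperone of antigen presentation, with 38.5 and 28.4 FPKM in testis, against 11.7 and 9.89 FPKM in oocyte (log2 difference 1.53 ± 0.22).

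Of the markers listed for each cell type, some set testis and oocyte far apart and others did so less or not at all. The germ cell markers sycp1, sycp3 and tekt1 were at 41.5 FPKM or more in both testis libraries and under 1 FPKM in both oocyte libraries. The oocyte markers bmp15 and buc were at 64.5 FPKM or more in both oocyte libraries and under 2 FPKM in both testis libraries. Other listed markers were weaker. The meiotic marker spo11 had 7.6 and 7.9 FPKM in testis, against 2.92 and 4.13 FPKM in oocyte. The sperm marker spaca6 had only 0.0579 and 0.0543 FPKM in testis. The oocyte markers gdf9, figla and zar1 had 6.52 to 11.4 FPKM in oocyte, and zp3b had 6.87 and 6.89 FPKM in testis. Most markers of the follicle cells that surround a growing oocyte were low in the eggs. The aromatase gene named CYP19A1 had 0.285 and 0.0471 FPKM there, against 4.65 and 11.5 FPKM in ovary. The FOXL2 feature ENSDARG00000042180 and fshr were listed at 0 in the eggs. They were low in ovary too, with 0.893 and 0.946 FPKM and 0.0286 and 0.0848 FPKM, so these zeros say little. The other FOXL2 feature (ENSDARG00000068417) had 0.286 and 0.38 FPKM in the eggs. The marker gsdf had 4.32 and 2.61 FPKM in the eggs, against 13.1 and 28 FPKM in ovary. Carry-over of follicle cells was not tested. Summed over 33 matched connective tissue features the level was 523.3 and 811.5 FPKM in testis, against 37.8 and 70.04 FPKM in oocyte. The sum over 34 white cell features was 74.7 and 64.9 FPKM in testis, against 27.1 and 24.3 FPKM in oocyte, and the sum over 22 vessel and red blood cell features was 37.3 and 98.8 FPKM in testis, against 7.93 and 4.65 FPKM in oocyte. The part of such cells in other results was not tested.

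Ribosomal protein RNAs were the largest gene group measured in testis among these lists. Their share of summed FPKM was 32.5% and 37.1% in the testis libraries, against 8.69% and 5.87% in the oocyte libraries. Of 77 tested features 52 rose and 0 fell in testis (71 and 0 after scaling), with a median difference of 1.44. The large subunit gene rpl35a had 4233 and 4991 FPKM in testis, against 420.1 and 197 FPKM in oocyte (log2 difference 3.99 ± 0.57), and the small subunit gene rps19 had 3818 and 6457 FPKM in testis, against 750.4 and 407 FPKM in oocyte (log2 difference 3.16 ± 0.59). Replicates were less alike for these short RNAs. Testis library 2 was above library 1 in most of them, with a median ratio of 1.21, and oocyte library 2 was below library 1, with a median ratio of 0.649. Accordingly 26 genes were called higher without testis library 2 and 19 without oocyte library 2, and 1 was called lower without testis library 2. The gene rplp0 was listed at 0 in testis library 1 and at 5051 FPKM in library 2, so no fold is given.

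Nuclear genes of energy metabolism took a larger share of FPKM in testis. Nuclear genes for the respiratory chain and ATP synthase held 3.997% and 4.46% of summed FPKM in the testis libraries, against 1.83% and 1.45% in the oocyte libraries. Of 89 tested, 48 rose and 14 fell in testis (65 and 3 after scaling), with a median difference of 1.21. Subunits of cytochrome c oxidase stood at the top. Beside COX5B, cox8b had 159 and 154 FPKM in testis, against 1.25 and 1.03 FPKM in oocyte (log2 difference 6.20 ± 0.46), and 1 of 2 features named COX6A1 (ENSDARG00000054588) had 43.99 and 47.7 FPKM in testis, against 0.239 and 0.197 FPKM in oocyte (log2 difference 5.27 ± 0.43). Both oocyte libraries were under 1 FPKM for 8 of the 89, COX5B and this COX6A1 feature among them. These entered through their testis level alone, so the filter fixed their direction. In the other direction the complex I subunit ndufa9 had 21.5 and 26.8 FPKM in testis, against 166 and 112 FPKM in oocyte (log2 difference -2.46 ± 0.26).

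Mitochondrially encoded RNAs were not higher in testis on the deposited scale. They held 4.01% and 4.26% of summed FPKM in the testis libraries, against 7.47% and 6.66% in the oocyte libraries. This difference rests on MT-ATP6 and MT-CO3, without which the shares were 4.01% and 4.26% in the testis libraries, against 4.52% and 4.095% in the oocyte libraries. Of 12 tested, 0 rose and 9 fell in testis (1 and 2 after scaling), so these calls rest on the scale used. The complex I subunit gene MT-ND5 had 163 and 129 FPKM in testis, against 660.0 and 592 FPKM in oocyte (log2 difference -2.10 ± 0.23), while the oxidase subunit gene MT-CO2 had 3925 and 4930.1 FPKM in testis, against 4197 and 3576 FPKM in oocyte (log2 difference 0.18 ± 0.50). The 2 that were called lower on both scales, MT-ATP6 and MT-CO3, were listed at 0 in both testis libraries, against 9085 and 7175 FPKM in oocyte and 5777 and 4814 FPKM in oocyte. Their neighbour mt-atp8 was listed at 0 in both testis libraries and above 10000 FPKM in both oocyte libraries. All other mitochondrially encoded genes tested had at least 100 FPKM in testis, and no fold is given against these zeros.

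Proteasome genes were higher in testis for the most part. Of 46 tested, 27 rose and 7 fell (34 and 1 after scaling), with a median difference of 1.28. The filter fixed the direction of 3 of the 46, which were under 1 FPKM in both oocyte libraries. The catalytic subunit gene psmb6 had 188 and 373 FPKM in testis, against 13.01 and 5.87 FPKM in oocyte (log2 difference 4.76 ± 0.43), and the ubiquitin receptor gene psmd4 had 34.3 and 43.4 FPKM in testis, against 1.6 and 1.51 FPKM in oocyte (log2 difference 3.95 ± 0.19).

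**Figure D4:**
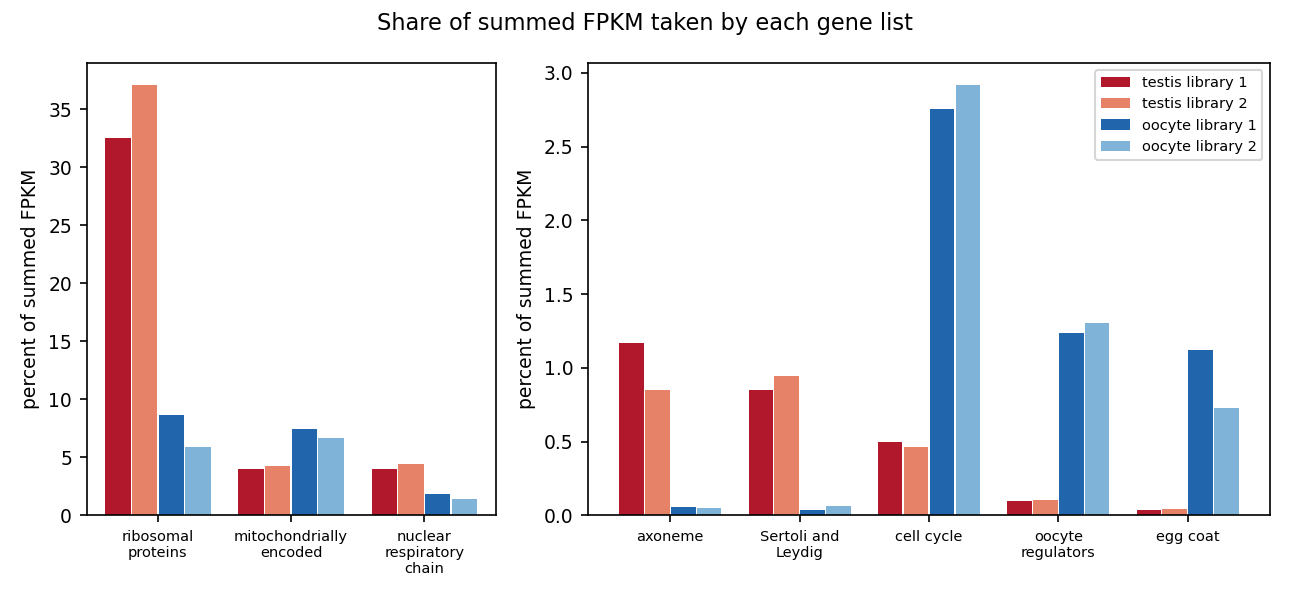
Percent of summed FPKM in each library (features above 10000 FPKM left out) taken by 8 gene lists, with testis libraries in red on the left of each group of bars and oocyte libraries in blue on the right. Ribosomal protein genes took 32.5% and 37.1% in testis, against 8.69% and 5.87% in oocyte, while cell cycle genes took 0.495% and 0.466% in testis, against 2.76% and 2.92% in oocyte.

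Commonly used reference genes were called about as often as other features. Of 23 tested features of this kind, 8 rose and 10 fell in testis (10 and 6 after scaling), against 23.8% higher and 48.4% lower over all features, and 5 rose without testis library 2. Beta actin actb1 had 608 and 628 FPKM in testis, against 164 and 104 FPKM in oocyte (log2 difference 2.24 ± 0.41). In the opposite direction gapdh had 26.3 and 14.4 FPKM in testis, against 180.1 and 131 FPKM in oocyte (log2 difference -2.91 ± 0.34), and tbp, the TATA-binding protein gene, had 12.8 and 17.1 FPKM in testis, against 135 and 111 FPKM in oocyte (log2 difference -2.96 ± 0.21). The elongation factor gene eef1a1l1 had 849 and 995 FPKM in testis, against 1202 and 956 FPKM in oocyte (log2 difference -0.22 ± 0.42), not called on the deposited scale and called higher after scaling. Succinate dehydrogenase sdha had 14.7 and 15.8 FPKM in testis, against 21.3 and 24.3 FPKM in oocyte (log2 difference -0.55 ± 0.17) and was called on neither scale.

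In some gene pairs one copy was higher in testis and the other lower. Zebrafish keep many gene pairs from an ancient genome duplication, and 505 symbols had exactly 2 tested features. In 72 of these pairs the copies were called in opposite directions, 43 of them on both scales, while 27 pairs were both higher and 172 both lower in testis. Opposite pairs were 14.3% of the 505, and with 23.8% of all features called higher and 48.4% lower, nothing particular to copies is read from this count. Of 2 features named MCM6, a subunit of the replication helicase, ENSDARG00000057683 had 15.1 and 12.2 FPKM in testis, against 0.163 and 0.0678 FPKM in oocyte (log2 difference 3.71 ± 0.17). The other, ENSDARG00000033231, had 1.21 and 0.771 FPKM in testis, against 174 and 221 FPKM in oocyte (log2 difference -6.64 ± 0.23). The pair mcm3 and mcm3l of the same helicase behaved alike, as mcm3 had 12.96 and 14.8 FPKM in testis, against 0.74 and 0.313 FPKM in oocyte and mcm3l had 0.321 and 0.199 FPKM in testis, against 10.9 and 12.7 FPKM in oocyte. Of 2 features named CYP11A1, the enzyme that starts steroid synthesis, ENSDARG00000092696 had 1.92 and 2.12 FPKM in testis and was listed at 0 in both oocyte libraries. ENSDARG00000002347 had 0.593 and 0.462 FPKM in testis, against 78.8 and 145 FPKM in oocyte (log2 difference -6.15 ± 0.30). The same exchange was seen for fibronectin, where ENSDARG00000006526 had 9.49 and 5.88 FPKM in testis, against 0.315 and 0.296 FPKM in oocyte and ENSDARG00000019815 had 0.329 and 0.379 FPKM in testis, against 15.9 and 26.8 FPKM in oocyte. The 2 features named BRPF3, a subunit of histone acetyltransferase complexes, had 14.4 and 13.1 FPKM in testis, against 0.765 and 0.92 FPKM in oocyte for ENSDARG00000070513 and 0.49 and 0.456 FPKM in testis, against 18.5 and 20.01 FPKM in oocyte for ENSDARG00000074238. In each of these pairs the testis libraries lay above the oocyte libraries for one copy and below them for the other. The pairs were picked because their copies went in opposite directions. For CYP11A1, fibronectin, BRPF3 and the pair mcm3 and mcm3l, each copy was under 1 FPKM in both libraries of its lower tissue. These copies were tested through the other tissue alone, so the filter fixed their direction.

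**Figure D5:**
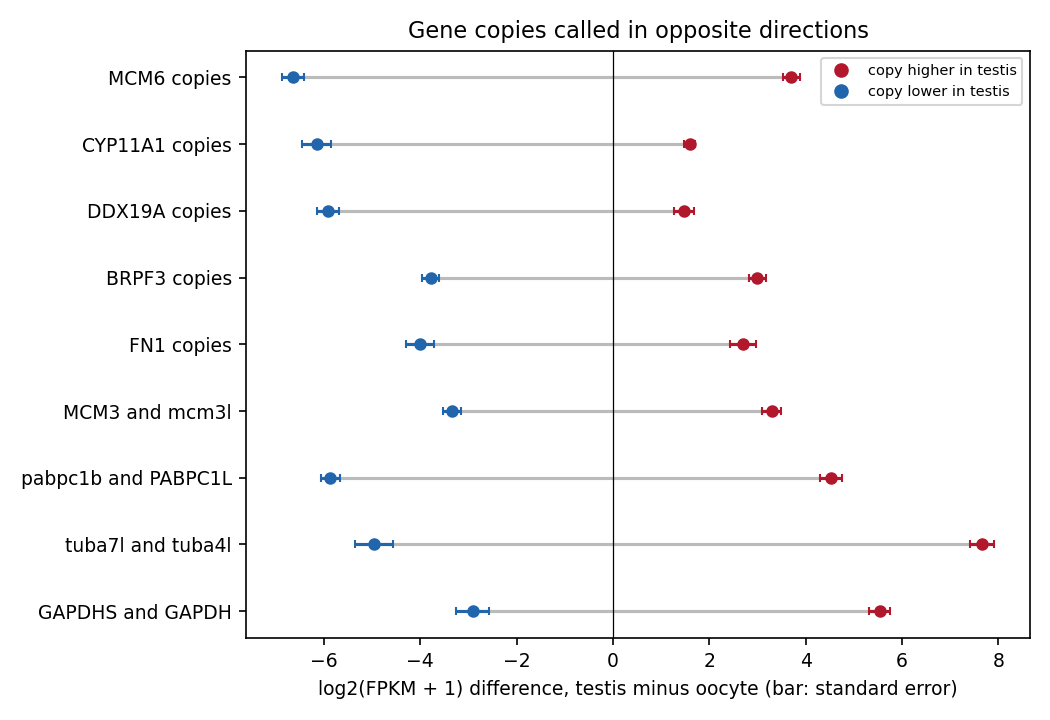
Difference in log2(FPKM + 1), testis minus oocyte, for pairs of related genes (rows), with the copy higher in testis in red, the copy lower in testis in blue, and its standard error as a bar. Pairs in the upper rows share 1 symbol, those below differ in name, and they span from 7.66 for tuba7l to -6.64 for the MCM6 feature ENSDARG00000033231.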

How the data were processed

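RNA-seq of 2 testis, 2 oocyte and 2 ovary libraries was strand-specific with paired reads of 76 bases, per the labels' protocols. Per the submitters' processing notes TopHat, Bowtie2 and Cuffnorm were used with the GRCz10 genome, and versions are not given in the sources used here. The authors deposited 1 table of FPKM values, in which read counts and so the absolute depth are unknown. FPKM of short features is unstable, and reads shared by near-identical copies may have been split. Symbols came from a gene name table, which matched 26411 of 32253 features. Some copies share 1 symbol and are told apart by Ensembl ID.

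Values were compared as log2(FPKM + 1) in R 4.3.3 by limma (version 3.58.1), with a trend in the empirical Bayes step. The ovary libraries entered the fit only for the estimate of spread. Tests were two-sided with Benjamini-Hochberg adjustment over 12881 features, and a call needed an adjusted p under 0.05 and an absolute difference of at least 1. Fold changes on this scale understate those of low genes. Counts were repeated after median-of-ratios scaling. The fit was tested on simulated data. Named genes were the 15 largest and 15 smallest differences among features with a symbol, called alike on both scales, with non-overlapping groups, and members of the gene lists, of which a few are not reported here. The comparison and lists were chosen with earlier results of these data known. Labels give both tissues replicate numbers 1 and 2, and nothing says that equal numbers share an animal or batch. Alternatives changed the pseudocount, filter, scaling, model, call rule and libraries.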

Additional observations from a re-analysis of the deposited data

How the results depend on the processing

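Depth is unknown for these FPKM values, and 2 libraries a tissue limit every statement on spread. The count of 9298 called features ranged from 8774 to 9361 without 1 library, that of features higher in testis from 2852 to 3091, and that of features lower in testis from 5922 to 6270. Scaling moved the split most, with 4640 features higher in testis and 3881 lower after median-of-ratios scaling, and 4248 and 4735 after quantile normalization. A filter of 5 FPKM left 1662 higher, by construction from fewer features. The order of detected features turned with the threshold, with 18526 in testis and 14667 in oocyte at 0.1 FPKM, and 4142 in testis and 6361 in oocyte at 5 FPKM. At 1 FPKM after scaling, chosen after seeing the data, it was 12106 in testis and 9398 in oocyte. A fit with the replicate number as a block called 9273, of which 3048 were higher and 6225 lower. The numbers were not taken to pair the libraries, since deviations of equal-numbered libraries correlated at -0.169. With oocyte numbers exchanged, a pairing chosen after seeing the data, the block fit called 9355 (3089 higher and 6266 lower). Of the named genes, called values turned sign under median-of-ratios scaling for dazl (0.22), kif3a (0.077) and kif3b (0.14), and under quantile normalization for dazl (0.17), kif3a (0.10), kif3b (0.23), dnd1 (0.21) and cyp17a1 (0.17). The cause was not tested. Of 1120 list counts recomputed, 79 moved by more than 1.5 times, 15 of them without 1 library, as given beside the lists.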

Other observations

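The gene groups in this part were listed after their values had been seen, so their counts are descriptions only. Some histone genes were higher in testis and others lower. Of 20 tested histone genes, 7 rose, 4 fell and 9 were not called in testis (11 rose and 3 fell after scaling). The filter fixed the direction of 2 of the 20, which were under 1 FPKM in both oocyte libraries. Over all features 23.8% were higher and 48.4% lower. The replacement histone gene H3-3B had 400.2 and 636 FPKM in testis, against 16.5 and 9.26 FPKM in oocyte (log2 difference 5.24 ± 0.33) and H1-10 had 27.3 and 31.8 FPKM in testis, against 1.34 and 0.612 FPKM in oocyte (log2 difference 3.97 ± 0.25). On the egg side h3f3a had 79.7 and 91.1 FPKM in testis, against 556 and 563 FPKM in oocyte (log2 difference -2.70 ± 0.24) and the H2A.Z gene h2az2 had 79.5 and 102 FPKM in testis, against 459 and 517 FPKM in oocyte (log2 difference -2.42 ± 0.27). Histone copies are nearly alike, so reads may have been split between them. Lysosomal cathepsins, proteases that process yolk in growing oocytes, were mostly higher in the egg, as 2 of 12 tested rose and 8 fell in testis (3 and 6 after scaling). The share lower in testis over all features was 48.4% (30.1% after scaling). Both oocyte libraries were under 1 FPKM for 3 of the 12, so the filter fixed their direction. Apart from ctss2.1, ctsla had 24.9 and 24.6 FPKM in testis, against 1021 and 1078 FPKM in oocyte (log2 difference -5.35 ± 0.22) and ctsb had 11.3 and 17.1 FPKM in testis, against 834 and 632 FPKM in oocyte (log2 difference -5.60 ± 0.36).

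A family of Pim-like kinases was seen in testis and hardly in the egg. Of 108 features with such a name 47 were tested, all of them through their testis level alone, as each stayed under 1 FPKM in both oocyte libraries, so their direction was fixed by the filter and no count of calls is given. Summed over all 108, the level was 209.7 and 226.5 FPKM in testis, against 1.19 and 1.38 FPKM in oocyte. The most abundant were pimr184, with 20.3 and 23.9 FPKM in testis, and pimr201, with 18.7 and 22.4 FPKM in testis. These copies are many and alike, so the level of a single copy is uncertain. Enzymes that add amino acids to tubulin tails, the ttll family, included 8 that rose and 3 that fell of 11 tested (8 and 0 after scaling), with ttll1 at 35.8 and 50.5 FPKM in testis, against 1.01 and 1.02 FPKM in oocyte (log2 difference 4.43 ± 0.23). In 6 of the 11 both oocyte libraries were under 1 FPKM, so the filter fixed their direction. Over all features 23.8% were higher and 48.4% lower. Of 23 tested glycolytic enzymes 8 were higher and 9 lower in testis (12 and 4 after scaling), close to the 72.2% of all features called. Among them eno4 had 18.6 and 12.97 FPKM in testis, against 0.121 and 0.0788 FPKM in oocyte (log2 difference 3.91 ± 0.21), while ldhb had 62.7 and 79.6 FPKM in testis, against 311 and 285 FPKM in oocyte (log2 difference -2.06 ± 0.25), a call lost after scaling. Both oocyte libraries were under 1 FPKM for 4 of the 23, eno4 among them, so the filter fixed their direction.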
